A study of Homo sapiens with 2 samples.

Results

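The replication-dependent histone genes are the clustered genes for the linker histone H1 and the core histones H2A, H2B, H3 and H4. Their symbols were matched by name (H1-1 to H1-6 and the H2AC, H2BC, H3C and H4C series), and 84 genes of the count table carried such a symbol. Members were chosen by a measured value, at least 10 counts in the DMSO or the L1 library, which kept 37 of the 84 genes, out of 18123 genes of the whole table that passed the same minimum. The 37 members were 1 H1, 8 H2A, 16 H2B, 5 H3 and 7 H4 genes. The data came from HEL, a human erythroleukemia cell line, labelled wild type, in RPMI medium with fetal bovine serum. The treated cells received L1, a compound known by its code name, at 1 µM, and the control cells received the solvent DMSO at 0.5%, both over 24 h. The study sequenced 1 library per condition from total RNA after capture of mRNA on beads, and the question was which genes differ between compound and solvent.

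Each condition was sequenced from a single library, which leaves the variation from culture to culture unmeasured, and therefore the values below carry no test and no replicate check. Read counts of each gene are given for both libraries, followed by the log2 ratio of L1 over DMSO after scaling by the TMM method. The bracketed range after a log2 ratio is an exact 95% Clopper-Pearson interval from the split of the counts, which covers counting error only. Medians and 2-fold calls used log2 ratios with a prior count of 2 added. The totals were 32556872 counts in DMSO and 27135647 in L1. All 12 erythroid and megakaryocytic markers examined were detected, while the T-cell genes CD3D and CD3E, the myeloid gene MPO and the epithelial gene EPCAM were at 0 in both libraries. CD2, a T-cell gene, had 57 and 55 counts in DMSO and L1, and CD79A, a B-cell gene, had 113 and 60.

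Replication-dependent histone genes supply the histones that package newly copied DNA, and their mRNA accumulates in S phase. Their transcripts are the only known metazoan mRNAs that normally end without a poly(A) tail. They end a few bases after a short stem-loop, which the stem-loop binding protein SLBP holds through processing, translation and decay. Some of these genes can also make longer, polyadenylated transcripts that run past the stem-loop, as known from differentiated cells. A method that captures poly(A) tails therefore sees mainly the polyadenylated share of histone transcripts.

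The 16-base stem-loop was found in the GENCODE 29 transcripts of 23 of the 33 members that this annotation holds, by a search on the transcript strand for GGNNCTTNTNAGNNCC, where N is any base. The 23 were 4 of the H2A, 12 of the H2B, 2 of the H3 and 5 of the H4 genes. A gene model that ends before the stem-loop cannot show one, so no match says only that the letters are not in the annotated transcript. Sites of up to 30 bases are shown for 6 members, because they carry the signal on which the 3′ end of these mRNAs depends and because they show how the families differ in it. Each is written 5′ to 3′ on the strand of the gene, with the stem-loop in capitals and its GRCh38 position.
H2AC6, chr6:26124662-26124691, plus strand: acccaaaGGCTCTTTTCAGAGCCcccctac
H2BC5, chr6:26158580-26158609, plus strand: tcccaaaGGCTCTTTTAAGAGCCacgcatg
H2BC21, chr1:149886181-149886210, minus strand: ctccaaaGGCTCTTTTCAGAGCCacccacc
H3C6, chr6:26225589-26225616, plus strand: atccaaaGGCTCTTCTCAGAGCCaacca
H4C8, chr6:26285124-26285153, minus strand: aaccaaaGGCCCTTTTCAGGGCCgcccact
H4C15, chr1:149860762-149860791, minus strand: tcccaaaGGCCCTTTTTAGGGCCgaccact
The form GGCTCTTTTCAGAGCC was the most frequent, in 12 members, among them H2AC6 and H2BC21. H2BC4 and H2BC5 shared the form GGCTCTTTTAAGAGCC. All 5 H4 stem-loops had the GGCCC stem, as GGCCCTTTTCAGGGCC in H4C5, H4C8 and H4C11 and as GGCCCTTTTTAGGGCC in H4C14 and H4C15. The remaining H2A, H2B and H3 stem-loops all began with GGCTC.

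Histone genes as a group had more counts in L1 than in DMSO. The 37 members summed to 3010 counts in DMSO and 7150 in L1, for a log2 ratio of 1.46 (1.40 to 1.52). On the scaled counts their share of the library was 0.00941% in DMSO and 0.0259% in L1. The median log2 ratio of the members was 1.33, with a range from -1.52 to 3.24, while the median of all 18123 genes was -0.0040. At least 2-fold higher in L1 were 23 of the 37 members, beside 7.12% of all genes tested, and 1 member was at least 2-fold lower, beside 4.83%. The counting interval lay wholly above 0 for 24 members, beside 26.8% of all genes, wholly below 0 for 1 member, and included 0 for 12 members. Because these are the counts that chose the members, all of these values are a description.

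The minimum count and the depth shaped these numbers. Genes with few counts spread more widely, and 15.7% of all genes with 10 to 99 counts in the higher library were at least 2-fold higher in L1, against 3.13% of genes with at least 100 counts. Among the members, 13 of the 25 with 10 to 99 counts and 10 of the 12 with at least 100 counts were at least 2-fold higher, and the median log2 ratios were 1.27 and 1.62. The list gained 12 genes only through the L1 library, since they had under 10 counts in DMSO, and 2 genes entered only through DMSO, so the members are not all histone genes of the clusters. The 23 members with at least 10 counts in both libraries had a median log2 ratio of 1.28, and 13 of them were at least 2-fold higher, beside 4.21% of the genes that met the same condition. Without any minimum count, the 84 genes summed to 3077 counts in DMSO and 7236 in L1, for a log2 ratio of 1.45 (1.39 to 1.51), while their median was 0.40, and 20 of them had no count in either library. The members just inside the minimum were H3C7 with 6 and 10 counts in DMSO and L1, H2AC20 with 8 and 11, and H2BC18 with 4 and 11. Just outside it were H2BC7 with 0 and 9 counts, H1-4 with 3 and 8, H2AC7 with 2 and 8, H3C8 with 2 and 7, and H3C4 with 7 and 2.

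**Figure D1:**
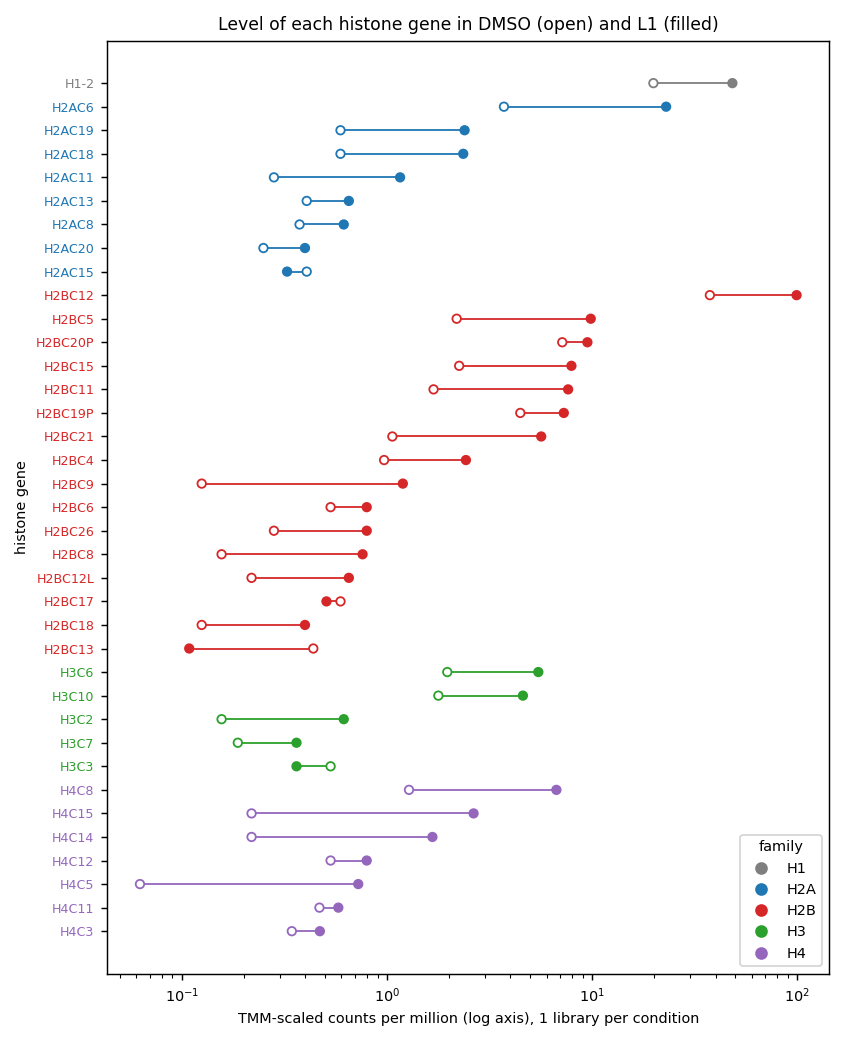
TMM-scaled level (CPM) of each of the 37 histone genes (log axis) in the DMSO library (open circles) and the L1 library (filled circles), 1 library per condition, grouped and coloured by family. The filled circle lies to the right of the open one in 33 of the 37 genes; values are not divided by gene length, so rows are to be read one by one.

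H2BC12 and H1-2 dominated the histone counts. Together they held 61.1% of the member counts in DMSO and 57.0% in L1. H2BC12 (ENSG00000197903, formerly HIST1H2BK) encodes an H2B protein, and in GENCODE 29 it is a 381-base gene with a single exon on the minus strand, chr6:27146418-27146798. It had 1201 counts in DMSO and 2742 in L1, for a log2 ratio of 1.40 (1.31 to 1.5). Of its 31-base words 86.3% also occur in transcripts of another gene, so some of its reads may belong elsewhere. RefSeq gives the same gene a span of 8566 bases, chr6:27138293-27146858, so the 2 annotations differ in how far it runs. H1-2 (ENSG00000187837, formerly HIST1H1C, chr6:26055787-26056428, minus strand) encodes a linker histone, which binds the DNA where it enters and leaves the nucleosome. It had 637 counts in DMSO and 1334 in L1, for a log2 ratio of 1.28 (1.14 to 1.42). Without both genes the remaining 35 members summed to 1172 and 3074 counts, a log2 ratio of 1.60 (1.51 to 1.70).

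Levels can be compared between genes only per length, and 12 members had a deposited FPKM value in each library. H2BC12 had the highest FPKM, 76.3 in DMSO and 202 in L1, followed by H1-2 with 27.4 and 66.5. H2AC6 followed with 2.24 and 13.9, and H2BC5 with 2.56 and 11.5, so that these genes changed places between the libraries. The other 8 lay between 0.481 (H2BC21) and 1.62 (H2BC11) FPKM in DMSO and between 1.48 (H2BC20P) and 7.36 (H2BC11) in L1. The FPKM ratios and the TMM-scaled count ratios of these 12 genes were equal to within 1.34e-09 on the log2 scale, so FPKM gave no separate check of a difference.

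H1 was represented by H1-2 alone. The other 5 genes of the H1 series (H1-1 and H1-3 to H1-6) were each under 10 counts and summed to 9 counts in DMSO and 12 in L1. At this depth H1-2 was thus the only one of the 6 linker histone genes of the rule that could be compared.

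H2A genes encode the partner of H2B in the H2A-H2B dimer, which flanks the H3-H4 tetramer of the nucleosome. The 8 H2A members had a median log2 ratio of 1.22, and 4 of them were at least 2-fold higher in L1. Their counts summed to 212 in DMSO and 852 in L1, for a log2 ratio of 2.22 (2.0 to 2.44). H2AC6 (ENSG00000180573, formerly HIST1H2AC, chr6:26124145-26139116, plus strand) carried most of them, with 119 counts in DMSO and 634 in L1, for a log2 ratio of 2.63 (2.34 to 2.92), the highest of the family. H2AC18 had 19 and 65 counts and H2AC19 had 19 and 66. These near-identical copies on chromosome 1 may share reads, so their separate values are uncertain. Their sum of 38 and 131 counts gave a log2 ratio of 2.0 (1.47 to 2.56). H2AC11 had 9 counts in DMSO and 32 in L1, for a log2 ratio of 2.04 (0.94 to 3.30). It passed the minimum only through L1. The other 4, H2AC8, H2AC13, H2AC15 and H2AC20, had at most 18 counts in either library and intervals that included 0. H2AC15 was the lowest, with 13 counts in DMSO and 9 in L1, for a log2 ratio of -0.32 (-1.72 to 1.02).

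H2B genes gave the largest group, 16 members, with a median log2 ratio of 1.32. Of these 11 were at least 2-fold higher and 1 was at least 2-fold lower in L1, beside 7.12% and 4.83% of all genes tested. Their counts summed to 1913 and 4274, a log2 ratio of 1.37 (1.29 to 1.45), and most of these were the counts of H2BC12. Below H2BC12, 4 protein-coding members had at least 100 counts in the L1 library. H2BC5 (chr6:26158146-26171349, plus strand) had 70 counts in DMSO and 272 in L1, for a log2 ratio of 2.17 (1.79 to 2.57). H2BC15 (chr6:27837760-27865798, plus strand) had 72 and 219 counts, a log2 ratio of 1.82 (1.43 to 2.22). The exons of H2BC15 overlap those of H2AC15 on the opposite strand, and the strand setting of the counting is not given in the sources used here. H2BC11 (chr6:27125897-27132750, minus strand) had 54 and 211 counts, a log2 ratio of 2.18 (1.74 to 2.64). H2BC21 (chr1:149884459-149886652, minus strand) had 34 and 156 counts, a log2 ratio of 2.41 (1.87 to 2.99). The intervals of these 4 genes overlapped one another, and all 4 lay above that of H2BC12 except for H2BC15, whose lower bound of 1.43 fell within it.

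The lower-count H2B genes were more scattered. H2BC4 had 31 counts in DMSO and 67 in L1, for a log2 ratio of 1.32 (0.69 to 1.99). H2BC9 had 4 and 33 counts, and its log2 ratio of 3.26 (1.77 to 5.22) was the highest of the family. H2BC8, H2BC26, H2BC18 and H2BC12L had 4 to 9 counts in DMSO and 11 to 22 in L1. All of these passed 2-fold, but the interval of H2BC18 reached from -0.08 to 3.78. These genes and H2BC9 had under 10 counts in DMSO and passed the minimum only through L1. Their ratios therefore lay above 0 by construction. H2BC12L on chromosome 21 shares every 31-base word of its transcript with another gene, so its reads cannot be assigned to it with certainty. H2BC6 with 17 and 22 counts and H2BC17 with 19 and 14 had intervals that included 0. H2BC13 had 14 counts in DMSO and 3 in L1, for a log2 ratio of -2.01 (-4.45 to -0.17), and was the only member that was at least 2-fold lower.

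A pair of H2B pseudogenes, H2BC19P and H2BC20P, overlap on opposite strands of chromosome 1 and were measured with more counts than most coding members. H2BC19P (chr1:149842875-149846486) had 143 counts in DMSO and 201 in L1, for a log2 ratio of 0.70 (0.39 to 1.02). H2BC20P (chr1:149844498-149850937) had 229 and 262 counts, a log2 ratio of 0.41 (0.15 to 0.67). Neither was 2-fold higher, and together they gave a log2 ratio of 0.53 (0.33 to 0.73). They were the only members with at least 100 counts in a library that did not pass 2-fold. The 14 protein-coding H2B members summed to 1541 and 3811 counts, a log2 ratio of 1.52 (1.43 to 1.61).

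H3 and H4 form the central tetramer of the nucleosome. The 5 H3 members had a median log2 ratio of 1.34, 3 of them were at least 2-fold higher, and their sum of 148 and 315 counts gave a log2 ratio of 1.30 (1.02 to 1.59). H3C6 (chr6:26224199-26227473, plus strand) had 63 counts in DMSO and 151 in L1, for a log2 ratio of 1.47 (1.04 to 1.92). H3C10 (chr6:27810064-27811300, plus strand) had 57 and 127 counts, a log2 ratio of 1.37 (0.91 to 1.85). These 2 genes held most of the H3 counts and did not differ from each other beyond their intervals. H3C2, with 5 and 17 counts, had the highest log2 ratio of the family, 1.98 (0.48 to 3.77). H3C7 had 6 and 10 counts. H3C2 and H3C7 passed the minimum only through L1, so their ratios lay above 0 by construction. H3C3 had the lowest, -0.55 (-1.84 to 0.66), from 17 and 10 counts.

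The 7 H4 members had the highest family median, 2.33, and 4 of them were at least 2-fold higher. They summed to 100 counts in DMSO and 375 in L1, for a log2 ratio of 2.12 (1.80 to 2.45). H4C8 (ENSG00000158406, formerly HIST1H4H, chr6:26277609-26285638, minus strand) had 41 and 185 counts, a log2 ratio of 2.39 (1.89 to 2.91). H4C14 had 7 and 46 counts and H4C15 had 7 and 73, and the log2 ratio of H4C15, 3.60 (2.48 to 4.96), was the highest among the members. H4C14 and H4C15 are near-identical copies that lie on opposite strands of chromosome 1, and 98.6% and 97.2% of their 31-base words occur in another gene. Their summed counts of 14 and 119 gave a log2 ratio of 3.30 (2.50 to 4.21). H4C5 had only 2 counts in DMSO and 20 in L1, for a log2 ratio of 3.54 (1.49 to 6.68). The intervals of the other H4 genes included 0. H4C12 and H4C11 share 100% and 82.2% of their words with another gene. H4C3 had 11 and 13 counts, H4C12 had 17 and 22, and H4C11 had 15 and 16, a log2 ratio of 0.31 (-0.80 to 1.42), the lowest of the family. The family median rested on the minimum count: H4C5, H4C14 and H4C15 had under 10 counts in DMSO, and without them the median of the other 4 was 0.46.

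**Figure D2:**
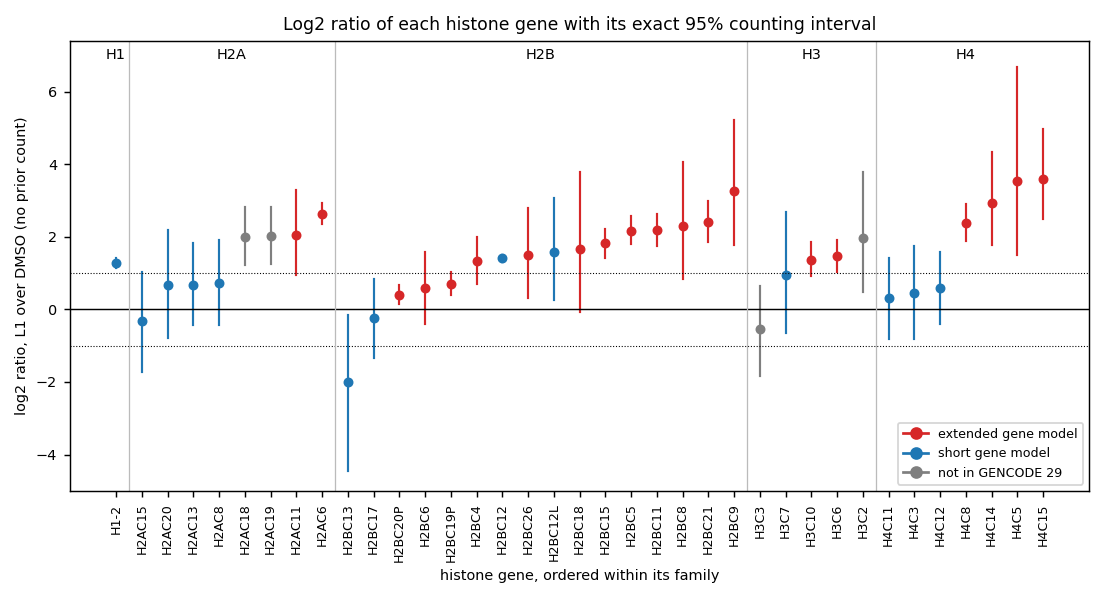
Log2 ratio of L1 over DMSO for each of the 37 histone genes without a prior count, ordered within the families H1, H2A, H2B, H3 and H4; points are single-library ratios and vertical lines are exact 95% counting intervals, with dotted lines at 2-fold. Genes with an extended GENCODE 29 model (red) all lie above 0, while of the genes with a short model (blue) only H1-2, H2BC12, H2BC12L and H2BC13 have an interval that leaves out 0.

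Between families, the summed counts placed H2A (2.22) and H4 (2.12) above H2B (1.37), H3 (1.30) and H1 (1.28) on the log2 scale. The intervals of H2A and H4 overlapped each other, those of H2B, H3 and H1 did too, and the lower bounds of H2A (2.0) and H4 (1.80) lay above the upper bounds of the other families, of which H3 had the highest at 1.59. The order of the family sums followed a few genes, since H2AC6 gave most of the H2A counts and H2BC12 most of the H2B counts. The H4 sum also took in H4C5, H4C14 and H4C15, which passed the minimum only through L1, where they were high. Some members of H2A, H2B and H3 entered in the same way, so the distances between these sums are a description. The H2A sum leaves out H2AW, an H2A gene that the match by symbol missed, with 94 counts in DMSO and 67 in L1. Without the minimum count, the sums over the full rule gave 2.21 for H2A, 1.93 for H4, 1.37 for H2B, 1.27 for H1 and 1.18 for H3. Members that belong to different families also overlapped widely, so that the range within H2B, from H2BC13 to H2BC9, was wider than any difference between family medians.

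The members also differed with their annotated gene structure, a split that was made after the values had been seen. Models were called extended where a GENCODE 29 transcript is spliced or runs at least 100 bases past the stem-loop, and short otherwise. The 20 extended genes had a median log2 ratio of 1.85 (range 0.40 to 3.24). At least 2-fold higher were 17 of them, beside 7.12% of all genes tested, and none was at least 2-fold lower, beside 4.83%. In 18 of the 20 the interval lay above 0, beside 26.8% of all genes, the exceptions being H2BC6 and H2BC18. The 20 summed to 977 counts in DMSO and 2765 in L1. The 13 short genes had a median of 0.55, 3 were at least 2-fold higher (H1-2, H2BC12 and H2BC12L), 1 was lower (H2BC13) and the intervals of the other 9 included 0. Without H1-2 and H2BC12 the remaining 11 short genes summed to 135 and 151 counts, a log2 ratio of 0.37 (0.03 to 0.72). Each of these 11 had at most 22 counts. Of the 10 extended genes with at least 100 counts 8 were at least 2-fold higher, beside 3.13% of all genes at that depth. With 10 to 99 counts it was 9 of 10 extended and 1 of 11 short genes, beside 15.7% of all genes at that depth. Of the 10 extended genes with 10 to 99 counts, 8 had under 10 counts in DMSO and passed the minimum only through L1, where they were high, so their values had to differ. The other 2, H2BC4 and H2BC6, summed to 48 and 89 counts, a log2 ratio of 1.10 (0.58 to 1.64). Among members with at least 10 counts in both libraries, 12 extended genes had a median of 1.62 and 8 short genes a median of 0.57. A longer model collects more reads, and the minimum count acts on the same counts, so the model and the level cannot be told apart. H2BC12, short in GENCODE 29, is the short-model member for which RefSeq gives the far longer span stated above. Its deposited FPKM, however, implies a length of 492 bases. RefSeq also gives spans of only 519 bases for H2AC6, 480 for H2BC11 and 409 for H4C8, all extended here. Other extended genes stay long in RefSeq, such as H2BC5 with 13229 bases and H4C15 with 16753. The split therefore depends on the annotation used. The other 4 members, H2AC18, H2AC19, H3C2 and H3C3, are not in GENCODE 29.

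**Figure D3:**
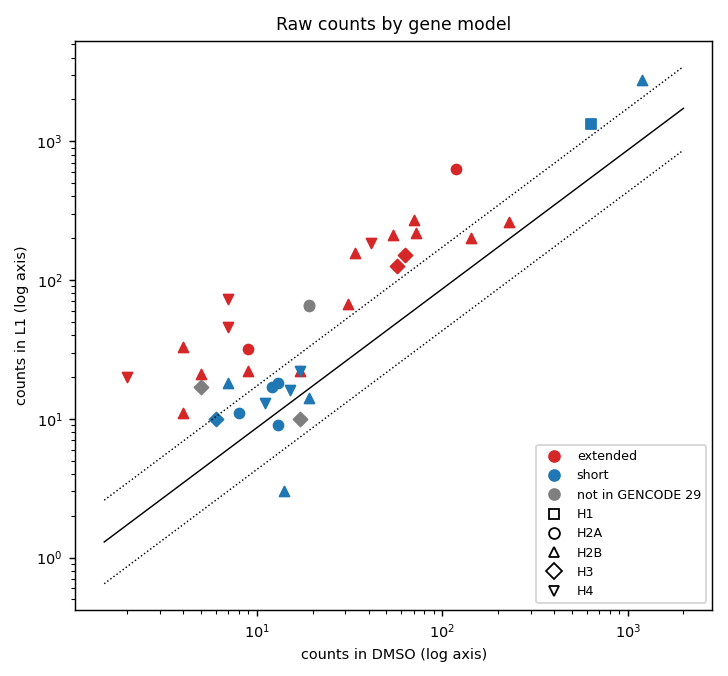
Counts of each of the 37 histone genes in the L1 library against the DMSO library, both on log axes, coloured by the GENCODE 29 gene model and shaped by family; the solid line marks equal TMM-scaled levels and the dotted lines mark 2-fold. Of the 11 short-model genes with few counts, H2BC13 lies below the lower and H2BC12L above the upper dotted line and the other 9 lie between the lines, while 17 of the 20 extended genes lie above the upper dotted line when the prior count is used.

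Reads of similar genes and chromosome position were also examined. The 10 members with under 5% of their 31-base words in another gene had a median log2 ratio of 1.67, 8 of them at least 2-fold higher, and the 6 with over 80% had a median of 1.37, 4 of them at least 2-fold higher. By their RefSeq positions, 26 members lie on chromosome 6 within 1.86 Mb, with a median of 1.31 and 15 at least 2-fold higher. The 10 on chromosome 1 had a median of 1.59, with 7 at least 2-fold higher, and H2BC12L is on chromosome 21. The 12 other genes examined inside the chromosome 6 cluster, which are butyrophilin, zinc finger and other genes, had a median of -0.0069. None was 2-fold higher. They were kept only with at least 100 counts in the higher library, where 3.13% of all genes were at least 2-fold higher. The one among them past 2-fold was BTN3A1, a butyrophilin, with 333 counts in DMSO and 139 in L1, for a log2 ratio of -1.05 (-1.34 to -0.76).

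Many H2A and H2B genes stand head to head and share a promoter region, so the members of such a pair can be compared. Both genes were measured in 6 pairs. H2BC11 and H2AC11, with 291 bases between their starts, had log2 ratios of 2.18 and 2.04. H2BC4 and H2AC6, 218 bases apart, had 1.32 (0.69 to 1.99) and 2.63 (2.34 to 2.92), intervals that did not overlap. H2BC21 and H2AC20, 322 bases apart, had 2.41 (1.87 to 2.99) and 0.67 (-0.78 to 2.19), and the H2A gene of this pair had only 8 and 11 counts. In the pair H2BC13 and H2AC13, 267 bases apart, both genes had at most 18 counts. Their log2 ratios were -2.01 (-4.45 to -0.17) and 0.68 (-0.43 to 1.83). H2BC8 and H2AC8, 282 bases apart, had 2.28 (0.84 to 4.05) and 0.72 (-0.44 to 1.91). The sixth pair was H2BC15 and H2AC15, whose models overlap, with 1.82 and -0.32. Among the 6 pairs, the counting intervals lay apart in H2BC4-H2AC6 and H2BC15-H2AC15 and overlapped in the others. At the low counts of H2AC20, H2BC13, H2AC13, H2BC8 and H2AC8, their pairs cannot be called alike or unlike. H2BC11 and H2AC11 had values of like size, but H2AC11 passed the minimum only through L1. RefSeq places H2AC18 beside H2BC19P and H2AC19 beside H2BC20P on chromosome 1, outside the search for pairs. H2AC18 had 1.99 (1.23 to 2.81) and H2BC19P 0.70 (0.39 to 1.02). H2AC19 had 2.01 (1.26 to 2.83) and H2BC20P 0.41 (0.15 to 0.67), so the intervals lay apart in both cases.

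**Figure D4:**
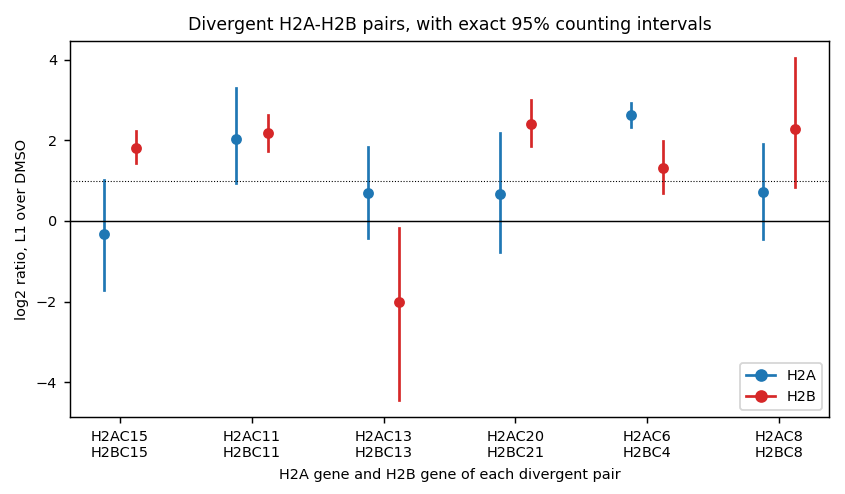
Log2 ratio of L1 over DMSO for the H2A gene (blue) and the H2B gene (red) of each of the 6 divergent pairs, as points from 1 library per condition with exact 95% counting intervals. The intervals of H2AC6 and H2BC4 do not overlap, nor do those of H2AC15 and H2BC15, while those of the other pairs do.

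Promoters are shown for the H2B gene with the most counts, for the region shared by H2AC6 and H2BC4 and for H4C8, since the 3 motifs searched fall differently in these families. The sequences are the 250 bases before the RefSeq start (GRCh38.p14), 5′ to 3′ on the strand of the gene. Capitals mark the octamer ATTTGCAT, which the POU factor OCT1 binds. They also mark TATAAA, the core element that places the start of transcription, and the box CCAAT, which the factor NF-Y binds, all on either strand, with overlapping matches joined.
H2BC12, chr6:27146859-27147108, minus strand: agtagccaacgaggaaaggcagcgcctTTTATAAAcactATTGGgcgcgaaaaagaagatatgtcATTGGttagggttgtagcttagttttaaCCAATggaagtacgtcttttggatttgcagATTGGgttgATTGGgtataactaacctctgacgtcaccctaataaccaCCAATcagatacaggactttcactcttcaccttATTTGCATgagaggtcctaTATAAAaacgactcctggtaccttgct
H2AC6, chr6:26123922-26124171, plus strand: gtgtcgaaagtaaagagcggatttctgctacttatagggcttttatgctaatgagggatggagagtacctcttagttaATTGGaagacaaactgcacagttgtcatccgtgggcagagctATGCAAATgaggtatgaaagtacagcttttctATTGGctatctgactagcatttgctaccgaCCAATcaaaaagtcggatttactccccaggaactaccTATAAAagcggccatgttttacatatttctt
H4C8, chr6:26285535-26285784, minus strand: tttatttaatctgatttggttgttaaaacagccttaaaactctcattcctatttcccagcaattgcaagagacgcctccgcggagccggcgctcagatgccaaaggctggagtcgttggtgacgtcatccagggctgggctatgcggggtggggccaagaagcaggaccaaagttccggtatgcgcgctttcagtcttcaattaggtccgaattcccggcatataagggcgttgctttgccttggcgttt
The window of H4C8 held none of the 3. The octamer was in 9 of 13 H2B and 4 of 8 H2A promoters among the 33 members with a promoter entry, in none of the H1, H3 or H4 promoters, and in 1.66% of all 27305 promoters. TATAAA was in 22 of the 33, beside 11.1% of all promoters. CCAAT was in 27 of the 33, beside 33.0% of all promoters, and in none of the 6 H4 promoters. The H2B genes with the octamer (9) had a median log2 ratio of 1.40 and those without it (4) a median of 1.55. A match is a description of the letters and not a binding site.

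Histone variant genes outside the replication-dependent set, most of whose mRNAs carry a poly(A) tail, were read for comparison. Of 11 such genes 9 had enough counts, with a median log2 ratio of 0.15 and none 2-fold higher or lower. H2AZ1 was at 0.18, H2AX at -0.10, H3-3A at -0.39, H3-3B at 0.15 and H1-10 at 0.20. H2AJ was at 1 count in DMSO and 0 in L1. All 9 had at least 100 counts in the higher library, where 3.13% of all genes were at least 2-fold higher, so none among 9 is near that share. Of the 12 cluster members with at least 100 counts, 10 were at least 2-fold higher.

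The genes that make histone mRNA stayed within 2-fold. A list of 26 genes for transcription and 3′ end processing of histone mRNA had a median log2 ratio of -0.03, and none was 2-fold higher or lower. All 26 had at least 100 counts in the higher library, where 3.13% of all genes were at least 2-fold higher. SLBP, the stem-loop binding protein, had 4664 counts in DMSO and 3598 in L1, for a log2 ratio of -0.16. NPAT (-0.07) and CASP8AP2 (-0.25), which act at the histone locus body, LSM10 (-0.01), LSM11 (-0.63) and ZNF473 (-0.04), which act with the U7 particle, HINFP (-0.26), an activator of H4 genes, and POU2F1 (0.01), which encodes OCT1, were all within 2-fold. The cyclin E genes CCNE1 (-0.74) and CCNE2 (-0.32), which activate NPAT through CDK2, had the negative values given here and were within 2-fold too.

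Among 19 genes for the decay of histone mRNA the median log2 ratio was 0.01. Of the 19, all with at least 100 counts, 1 was at least 2-fold higher, beside 3.13% of all such genes. UPF1 (0.32), which starts this decay, ERI1 (-0.04), an exonuclease that trims the stem-loop, and DIS3L2 (0.30), an exonuclease, were within 2-fold. LSM4, a subunit of the ring that binds the oligouridylated end, was the exception, with 856 counts in DMSO and 2749 in L1, for a log2 ratio of 1.90 (1.79 to 2.01). Of 23 histone chaperone genes none was 2-fold higher, beside 3.13% of all genes with at least 100 counts, and the median was -0.15. NASP (-0.44), CHAF1A (-0.29), CHAF1B (-0.69), ASF1A (0.09) and ASF1B (-0.15), which carry or deposit H3-H4, were within 2-fold. HJURP, the chaperone of the centromeric H3 variant CENPA, had 3679 and 1358 counts, a log2 ratio of -1.22 (-1.32 to -1.13).

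Most genes of DNA replication had ratios on the other side of 0 from most histone genes. Of 42 replication genes 39 had a log2 ratio below 0, beside 9125 of all 18123 genes tested, and the median was -0.32. At least 2-fold higher was 1 of the 42, near the 3.13% of all genes with at least 100 counts, which all 42 had. PCNA (-0.40), the sliding clamp, MCM2 (-0.31), a helicase subunit, and RRM2 (-0.39), a subunit of ribonucleotide reductase, were among the lower ones. GINS1, a helicase subunit, was the one above 2-fold, with 631 counts in DMSO and 1122 in L1, for a log2 ratio of 1.04 (0.90 to 1.19). The 28 genes of mitosis and G2/M had a median of -0.04, 13 above and 15 below 0. CCNB1, cyclin B1, was at 0.76 and CDK1 at -0.48. In bulk RNA a different number of cells in a phase and a different level per cell cannot be told apart.

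RNAs that normally lack a long poly(A) tail were also higher in L1. Of 24 such RNAs on the list 9 had at least 10 counts in a library, and all 9 had a log2 ratio above 0. Their median was 1.30, and 5 were at least 2-fold higher, beside 7.12% of all genes tested. The counting interval lay above 0 for 8 of the 9. RN7SK, which holds the elongation factor P-TEFb, had 61 counts in DMSO and 722 in L1, for a log2 ratio of 3.78 (3.40 to 4.18). RN7SL1, the RNA of the signal recognition particle, had 186 and 399 counts, a log2 ratio of 1.31 (1.06 to 1.57). RN7SL2, a second copy, had 180 and 385 counts, a log2 ratio of 1.31 (1.05 to 1.57). SNORD3A, the U3 RNA, had 27 and 109 counts, a log2 ratio of 2.23 (1.61 to 2.89). RMRP had 4 and 14 and passed the minimum only through L1. The others above the minimum were RPPH1, SNORA73B (0.48) and the mitochondrial ribosomal RNAs MT-RNR1 (0.91) and MT-RNR2 (0.27). RPPH1 had 16 and 17 counts, a log2 ratio of 0.30 (-0.77 to 1.38). The other 15, among them the spliceosomal U RNAs, had at most 4 counts in a library. The 9 RNAs above the minimum had ratios on the same side of 0 as most histone genes, and their part in the histone result was not tested.

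**Figure D5:**
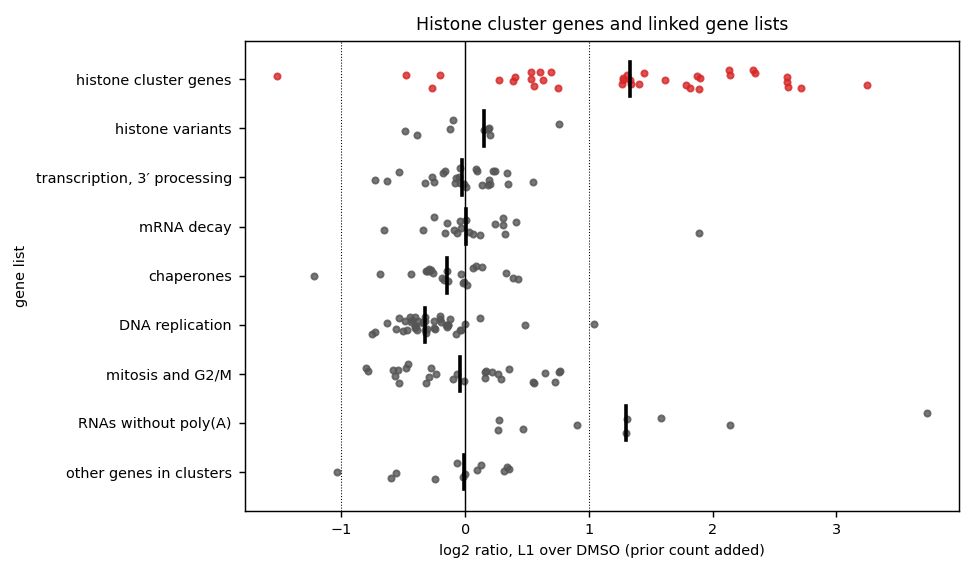
Log2 ratio of L1 over DMSO with a prior count, as 1 point per gene with at least 10 counts in a library, for the histone cluster genes (red) and 8 linked gene lists (grey); vertical bars mark list medians and dotted lines mark 2-fold. The histone cluster genes (median 1.33) and the RNAs without a poly(A) tail (median 1.30) lie to the right, while the other list medians lie between -0.32 and 0.15.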

How the data were processed

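HEL cells with L1 or DMSO gave 1 library each. The authors deposited raw read counts for 61806 Ensembl genes and, for 13924 genes, FPKM values, which are scaled for depth and gene length. The submitters' processing notes name fastp 2.0, HISAT2 2.1.0, StringTie and hg38. The counting program and its strand setting are not given in the sources used here. A gene was kept if either library held 10 or more counts. TMM factors came from edgeR 4.0.16 (R 4.3.3) and gave DMSO an effective size 1.16 times that of L1, and DESeq2 1.42.0 gave an alternative scaling. Other steps used Python 3.11.15, numpy 2.4.6, pandas 2.3.3, scipy 1.17.1 and matplotlib 3.10.9. Log2 ratios across genes had a prior count of 2. Gene models and transcripts were taken from GENCODE 29 (33 members matched), promoters from RefSeq (33 matched). The members and lists were chosen with earlier results of these data known. Genes named are members with at least 100 counts, the highest, the lowest and the most counted of each family, list genes past 2-fold with at least 100 counts, and a fixed set of factors, of which some are not reported here. The remaining members are given by counts. Alternatives were other scalings, prior counts, minimum counts, fold thresholds, little shared sequence, protein-coding members and FPKM. The scripts were tested on simulated data.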

Additional observations from a re-analysis of the deposited data

How the results depend on the processing

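No paired analysis was possible because a single library stands for each condition. Over the other scalings the median of the members lay between 1.30 and 1.37, and all 111 values of single members stayed within their counting intervals. None of 91 summary values under alternatives changed sign. A count was read as moved past 1.5 times, a sum outside its counting interval, and a median outside the range from the median lower to the median upper bound of its members' intervals, a wide range. By these limits 18 values moved. The 23 members at least 2-fold higher became 13 with at least 10 counts in both libraries, 10 with at least 100 counts, 15 at 3-fold, 15 with the whole interval past 2-fold, 8 with under 5% shared words and 10 with FPKM, where fewer genes or a stricter threshold were used by construction. The 1 member at least 2-fold lower (H2BC13) became 0 in each of these. The H4 median of 2.33 became 0.46 with at least 10 counts in both libraries (4 genes left), and the H2A median of 1.22 became 2.60 with at least 100 counts (H2AC6 alone). Within the wide range, but by over 1.5 times, the H2B median of 1.32 became 2.30 with under 5% shared words and the H2A median became 1.87 with at least 10 counts in both libraries. The log2 ratio of the summed counts, 1.46, became 1.63 with under 5% shared words and 1.55 with protein-coding members. Among alternatives chosen after seeing the data, the sum became 1.60 without H1-2 and H2BC12, and the median of 1.33 became 0.55 for short gene models. The sum was 1.45 with no minimum count, and the median was 1.31 with copies summed and 1.85 for extended models. Depth limits the 25 members with 10 to 99 counts most.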

Other observations

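A further H2A gene stands in the clusters under another name. H2AW, which the reference names list as H2AC25 and which the match by symbol therefore left out, had 94 counts in DMSO and 67 in L1, for a log2 ratio of -0.28 (-0.75 to 0.19). Among the H2A genes of the clusters it had the second most counts in DMSO, after H2AC6, and its interval did not overlap that of H2AC6. The 47 cluster genes under 10 counts summed to 67 counts in DMSO and 86 in L1, and by family to 9 and 12 for H1, 9 and 28 for H2A, 5 and 10 for H2B, 27 and 26 for H3 and 17 and 10 for H4.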
